A study of Mus musculus with 6 samples.

Results

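The 10 mesothelial genes described here are Upk1b, Upk3b, Krt8, Krt18, Krt19, Msln, Wt1, Lrrn4, Efemp1 and Muc16, out of 30142 genes tested. They were chosen by name as genes of the mesothelium, with earlier results of these data known, so their counts are a description. Each was represented by 1 transcript cluster, the set of array probes that stands for a gene. Expression was measured on 6 Affymetrix arrays, 1 for each pool of cells, which male C57BL/6J mice gave from their epididymal fat. The cells came from the stromal vascular fraction, which collagenase frees from fat, and were labelled with an antibody to the product of Adgre1, a surface receptor of macrophages, and taken by magnetic selection. The normal chow group (NCD) had 3 pools of 20 mice, written NCD1 to NCD3, and the high-fat group (HFD, 60% fat) had 3 pools of 10 mice, HFD1 to HFD3; values of single arrays are given in this order. Both groups were on their diet for 16 weeks from 6 weeks of age, were 22 weeks old at the end and carried no genetic modification named in the labels. Mice were pooled before measurement, so differences from mouse to mouse were not seen. The series compared macrophages of lean and obese fat, and no mesothelial cells were selected for.

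The mesothelium is the single layer of flat epithelial cells that lines the body cavities and covers the organs within them, visceral fat such as the epididymal depot included. Its cells keep epithelial features, among them filaments of simple keratins, and carry a coat of membrane glycoproteins on the surface that faces the cavity. They also express Wt1, a zinc finger transcription factor of the embryonic mesoderm that lines the cavities, and adult mesothelium keeps it.

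All 10 genes were lower in the cells from HFD mice. On the log2 scale the differences, HFD minus NCD, ran from −3.34 for Upk1b to −0.48 for Wt1, with a median of −1.69 against 0.01 over all genes tested. Each of the 10 passed an adjusted p of 0.05 in limma's moderated test over all genes, at adjusted p values between 0.00222 and 0.0323. Of all genes tested 7.83% passed in either direction and 2.87% passed as lower in HFD (1.38% by at least 2-fold), and 4.96% passed as higher. For each of the 10 genes the lowest NCD array lay above the highest HFD array, which was true of 13% of all genes. In RNA of a mixed cell pool, fewer cells of a type and less RNA per cell cannot be told apart.

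Promoter sequence is shown because these genes were lower together and their promoters are where a shared sequence feature would be looked for. RefSeq windows on GRCm38.p6, of 250 bases before and 50 after the annotated start, were at hand for 6 of the 10 genes: Efemp1, Krt8, Krt18, Lrrn4, Muc16 and Upk3b. The windows printed are those of Upk3b (chr5:136038246-136038545, plus strand) and Lrrn4 (chr2:132880813-132881112, minus strand), which had 2 of the 3 largest differences among these 6. They are also the 2 of the 6 with a match to the letters GGAATG. The window of Efemp1, whose difference of −2.93 lay between theirs, had no such match and is not printed. The other 2 windows printed belong to the keratin pair Krt8 (chr15:102004293-102004592, minus strand) and Krt18 (chr15:102027966-102028265, plus strand). All are written 5′ to 3′ in the direction of the gene. Capitals mark matches, on either strand, to the motifs named after them.
Upk3b: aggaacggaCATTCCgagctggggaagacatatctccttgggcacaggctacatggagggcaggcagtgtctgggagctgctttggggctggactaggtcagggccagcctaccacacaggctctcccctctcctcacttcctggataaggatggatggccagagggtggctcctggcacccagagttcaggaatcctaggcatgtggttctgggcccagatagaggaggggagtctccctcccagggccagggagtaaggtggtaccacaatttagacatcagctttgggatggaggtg
Lrrn4: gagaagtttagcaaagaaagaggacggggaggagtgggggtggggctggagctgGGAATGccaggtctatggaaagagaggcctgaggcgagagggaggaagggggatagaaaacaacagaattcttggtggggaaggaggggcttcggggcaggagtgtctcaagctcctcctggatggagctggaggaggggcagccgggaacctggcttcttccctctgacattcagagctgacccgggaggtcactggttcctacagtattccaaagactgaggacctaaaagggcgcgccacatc
Krt8: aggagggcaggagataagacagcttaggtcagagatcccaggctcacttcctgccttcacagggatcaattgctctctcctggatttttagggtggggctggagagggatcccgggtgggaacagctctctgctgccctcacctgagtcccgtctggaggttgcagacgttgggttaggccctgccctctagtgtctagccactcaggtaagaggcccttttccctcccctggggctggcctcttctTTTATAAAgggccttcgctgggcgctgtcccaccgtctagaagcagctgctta
Krt18: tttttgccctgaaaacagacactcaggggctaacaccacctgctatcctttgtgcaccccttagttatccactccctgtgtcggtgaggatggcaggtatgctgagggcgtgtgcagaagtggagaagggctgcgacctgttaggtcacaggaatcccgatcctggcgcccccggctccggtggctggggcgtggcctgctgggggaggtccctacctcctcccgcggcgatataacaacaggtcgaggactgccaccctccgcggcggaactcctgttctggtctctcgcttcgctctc
The letters GGAATG, the core bound by TEAD factors, were found in the windows of Upk3b and Lrrn4, and in 14.7% of 32851 windows of this length. The letters TATAAA, those of the TATA box, were found in Krt8 (overlapping matches on both strands, at 248 to 255 of the window) and in 13.6% of windows; the matches in Krt8 begin at −3 and −1 from the annotated start and so lie across it, not upstream of it where a TATA box works. GGGCGG, the box of SP and KLF factors, was found in Efemp1 among the 6 and in 35.7% of windows. GCGTGGGNG, a core shared by WT1 and EGR factors, was found in 0 of the 6 and in 1.90% of windows. These matches describe letters in a window and show no binding. The motifs were chosen with the windows in view. Krt8 and Krt18 are neighbours in RefSeq's annotation and point away from each other, with 2 long non-coding RNA genes and 0 protein-coding genes between them.

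The uroplakins had the largest differences. Uroplakins are membrane proteins first known from the plaques of the bladder surface, and mesothelium expresses Upk1b, which belongs to the tetraspanins, and Upk3b, which spans the membrane once. Upk1b was at 10.76, 9.84 and 9.78 on the chow arrays and at 7.02, 6.84 and 6.50 on the high-fat arrays (log2 expression). The groups were separated by a gap of 2.76, and the NCD1 array was the highest. Upk1b fell 10.1-fold (−3.34 ± 0.29, standard error, 3 arrays per diet, adjusted p = 0.00359), the 16th largest fall among the genes tested. Upk3b was at 10.39, 9.13 and 9.34 on the chow arrays and at 6.51, 6.11 and 6.33 on the high-fat arrays. Here too NCD1 stood above NCD2 and NCD3, and the HFD arrays lay close to the array background. That level was 6.23, the mean over arrays of the 95th percentile of 23 antigenomic probe sets, which match no mouse sequence; HFD2 was below its own array's value. Upk3b fell 9.87-fold (−3.30 ± 0.33, adjusted p = 0.00571). Both genes stayed called whichever array was left out, at −3.51 to −3.02 for Upk1b and −3.55 to −2.92 for Upk3b. The bladder uroplakins Upk1a, Upk2 and Upk3a and the gene Upk3bl were below background on every array, and 0 of these 4 were called by limma (0 at an unadjusted p below 0.05). Upk1a was at −0.11 ± 0.08 (adjusted p = 0.465) and Upk3bl at 0.07 ± 0.10 (adjusted p = 0.718).

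**Figure D1:**
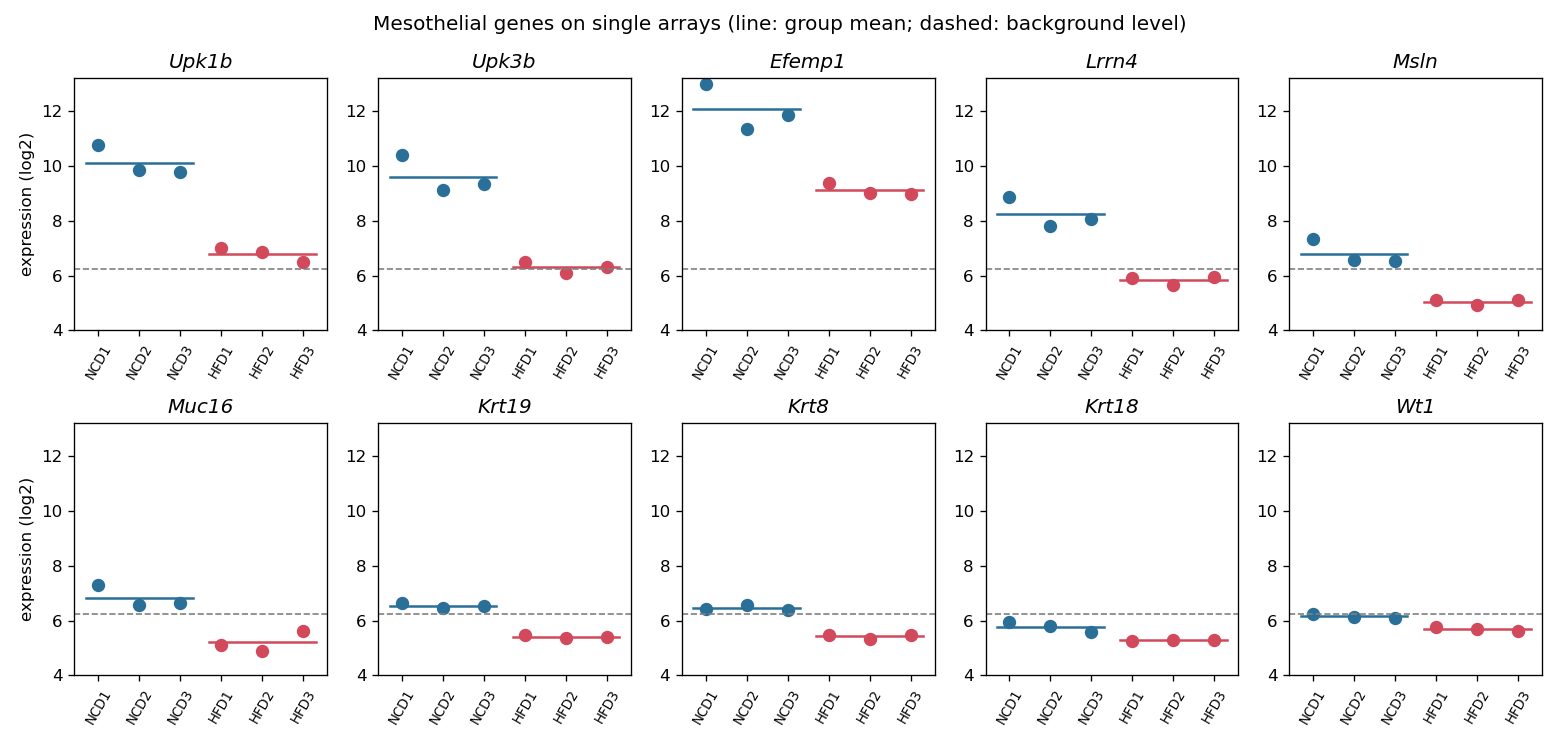
Log2 expression of each of the 10 mesothelial genes on the 3 NCD (blue) and 3 HFD (red) arrays. Points are arrays, solid lines are group means and the dashed line is the background level of 6.23. The NCD points lie above the HFD points in all 10 panels, and levels should not be compared between panels because each gene has its own probes.

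Efemp1 and Lrrn4 followed. Efemp1 encodes fibulin-3, a glycoprotein of the extracellular matrix that fibroblasts make as well. It was at 12.98, 11.37 and 11.85 on the chow arrays and at 9.39, 9.03 and 8.99 on the high-fat arrays. All 6 arrays were well above background, and the NCD arrays were spread over a wider range than the HFD arrays. Efemp1 fell 7.63-fold (−2.93 ± 0.40, adjusted p = 0.0114). Its call was lost without HFD2 or HFD3, at values of −3.28 to −2.47 over all fits without 1 array (adjusted p at most 0.0633). Lrrn4, a transmembrane protein with leucine-rich repeats, was at 8.87, 7.82 and 8.06 on the chow arrays and at 5.90, 5.66 and 5.93 on the high-fat arrays. The 3 HFD arrays were below background, so only a lower bound of the fold is given: the level was at least 3.91-fold lower, comparing the NCD mean of 8.25 ± 0.55 (SD) with the background of each HFD array. The measured HFD mean was 5.83 ± 0.15, and the fitted difference of −2.41 ± 0.27 (adjusted p = 0.00733) was called without each array in turn.

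Msln and Muc16 encode partners at the cell surface: mesothelin, a protein held by a lipid anchor, binds the large membrane mucin MUC16, the antigen known as CA125. Msln was at 7.33, 6.57 and 6.52 on the chow arrays and at 5.09, 4.92 and 5.12 on the high-fat arrays. Muc16 was at 7.28, 6.58 and 6.65 on the chow arrays and at 5.11, 4.90 and 5.61 on the high-fat arrays. The 2 genes thus had much the same order, with NCD1 highest, NCD2 and NCD3 close together, and every HFD array below background. Msln was at least 1.44-fold lower (measured means 6.80 ± 0.45 and 5.04 ± 0.11; fitted −1.76 ± 0.22, adjusted p = 0.00935), and its call was lost without HFD2 (adjusted p = 0.0505). Muc16 was at least 1.47-fold lower (measured means 6.84 ± 0.39 and 5.21 ± 0.37; fitted −1.63 ± 0.25, adjusted p = 0.0157), and its call was lost without NCD2, HFD1 or HFD2.

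The keratins and Wt1 had smaller differences at levels near background. Keratin 8 pairs with keratin 18 to form the filaments of simple epithelia, and keratin 19 is a small keratin of the same kind of cell. Krt8 was at 6.43, 6.55 and 6.40 on the chow arrays and at 5.48, 5.33 and 5.47 on the high-fat arrays. Krt19 was at 6.62, 6.45 and 6.53 on the chow arrays and at 5.47, 5.37 and 5.39 on the high-fat arrays. In both genes the arrays of a diet lay within 0.17 of each other, and the HFD arrays were below background. Krt8 was at least 1.13-fold lower (measured means 6.46 ± 0.08 and 5.43 ± 0.08; fitted −1.03 ± 0.08, adjusted p = 0.00288). Krt19 was at least 1.19-fold lower (measured means 6.53 ± 0.09 and 5.41 ± 0.06; fitted −1.12 ± 0.08, adjusted p = 0.00222), the smallest adjusted p of the 10 genes. Both stayed called whichever array was left out.

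Krt18 was at 5.94, 5.80 and 5.59 on the chow arrays and at 5.25, 5.27 and 5.30 on the high-fat arrays. These were below background on all 6 arrays, so no fold is given for a fitted difference of −0.50 ± 0.10 (adjusted p = 0.0323). Wt1 was at 6.26, 6.15 and 6.09 on the chow arrays and at 5.77, 5.68 and 5.61 on the high-fat arrays. The HFD arrays and NCD2 were below the background of their own array, and Wt1 likewise has no fold beside its difference of −0.48 ± 0.08 (adjusted p = 0.0214). Krt18 and Wt1 each lost their call without NCD2, HFD1, HFD2 or HFD3, at adjusted p values up to 0.121 and 0.0956. Of 6 other measured keratins of simple or wounded epithelia 0 were called by limma (2 at an unadjusted p below 0.05). The brightest were Krt80 (−1.17 ± 0.35, adjusted p = 0.100) and Krt7 (−0.49 ± 0.13, adjusted p = 0.0702), and Krt16, Krt17, Krt20 and Krt23 were below background on every array. Without NCD1 or NCD3, 1 of the 6 was called lower.

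**Figure D2:**
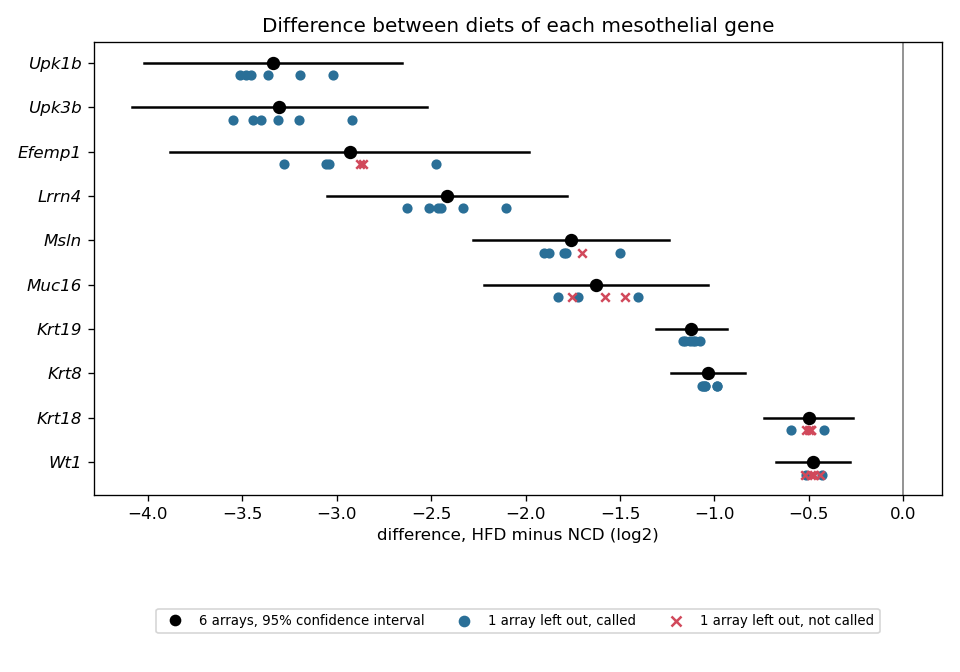
Difference between diets for each of the 10 genes (log2, HFD minus NCD). Black points and bars are the estimate and 95% confidence interval from 6 arrays with limma; coloured marks are fits without 1 array, as blue points where the gene was called and red crosses where it was not. Every estimate lies below 0, from −3.34 to −0.48, and Krt18 and Wt1 have the most crosses, 4 each.

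Without single arrays the number of the 10 genes called was 10 without NCD1 or NCD3, 7 without NCD2, HFD1 or HFD3, and 5 without HFD2. The share of all genes called as lower, 2.87% with 6 arrays, rose to 7.68% when NCD1 was left out and was 2.85% in the fit lacking NCD3. It came to 1.05% without HFD1, 0.524% without NCD2, and 0.415% and 0.411% without HFD2 and HFD3. All 10 differences were below 0 in each of these fits, which was fixed in advance because every NCD array lay above every HFD array.

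Within the chow group the arrays were not alike. NCD1 had the highest level of the NCD arrays for 9 of the 10 genes, Krt8 being the exception. The mean log2 level of the 10 genes was 8.28 on NCD1, 7.63 on NCD2 and 7.68 on NCD3, against 6.10, 5.91 and 6.03 on the high-fat arrays. NCD1 stood above the mean of NCD2 and NCD3 by 1.38 for Efemp1, 1.15 for Upk3b, 0.95 for Upk1b, 0.93 for Lrrn4, 0.78 for Msln and 0.67 for Muc16. The standard deviation was larger in NCD than in HFD for all 10 genes, but by little for Krt8, Wt1 and Muc16 (0.39 against 0.37 for Muc16). For 7 of the 10 the HFD spread is one of values below background on every HFD array.

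A wider set of 30 genes used to describe mesothelium, without the 10, had 29 members on the array. Of these, 11 fell, 1 rose and 17 were not called, with a median of −0.55, and 16 had all NCD arrays above all HFD arrays. Over all genes tested, 2.87% passed as lower and 13% had all NCD arrays above all HFD arrays. Rspo1, a secreted activator of Wnt signalling, was at 7.83, 7.69 and 7.60 on the chow arrays and at 6.51, 6.31 and 6.35 on the high-fat arrays, and fell 2.49-fold (−1.32 ± 0.10, adjusted p = 0.00264). Nkain4, which interacts with the sodium pump, was at least 1.58-fold lower (measured means 6.94 ± 0.14 and 5.89 ± 0.06, fitted −1.05 ± 0.09, adjusted p = 0.00444), and Rarres2, which encodes the chemoattractant chemerin, fell 2.85-fold (−1.51 ± 0.17, adjusted p = 0.00734). The one gene that rose was Pkp2, a desmosome protein, at 6.69, 6.72 and 6.99 on the chow arrays and 8.29, 8.21 and 8.61 on the high-fat arrays (2.98-fold, 1.57 ± 0.14, adjusted p = 0.00444). The other genes that fell were Gpm6a, Bnc1, Aldh1a2, Ildr2, Bcam, Sulf1, Cdh3 and Cxadr. Cdh3, at −0.45 ± 0.09, was below background on all 6 arrays, so it has no fold. Of the 29 genes, 9 were below background on every array, Cdh3 and the uncalled Calb2 among them; Calb2 encodes calretinin, a protein used to mark mesothelium in tissue sections. The number called lower was 5 without NCD2, 7 without HFD1, 4 without HFD2 or HFD3, 15 without NCD1 and 10 without NCD3. The fit without NCD1 called 7.68% of all genes lower, and those without HFD2 and HFD3 called 0.415% and 0.411%.

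The genes of this wider set did not share 1 order of the chow arrays: 19 of the 29 were highest on NCD1 and 9 were lowest on it. Of the 11 that fell, 8 were highest on NCD1, as 9 of the 10 mesothelial genes were: Gpm6a, Rspo1, Nkain4, Bnc1, Aldh1a2, Ildr2, Cdh3 and Cxadr. The other 3, Bcam, Sulf1 and Rarres2, were lowest on NCD1. Gpm6a, a neuronal membrane glycoprotein also found in mesothelium, was at 12.12, 9.93 and 10.65 on the chow arrays, whereas Sulf1, a sulfatase of heparan sulfate, was at 10.74, 11.43 and 12.70. The calls of Rspo1, Nkain4, Ildr2, Rarres2 and Pkp2 held in all fits without 1 array; Gpm6a lost its call without HFD2 or HFD3, Sulf1 also without NCD2, and Bnc1, Bcam, Cdh3 and Cxadr in at least 4 of the 6 such fits. These genes were set against each other after their values were seen.

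**Figure D3:**
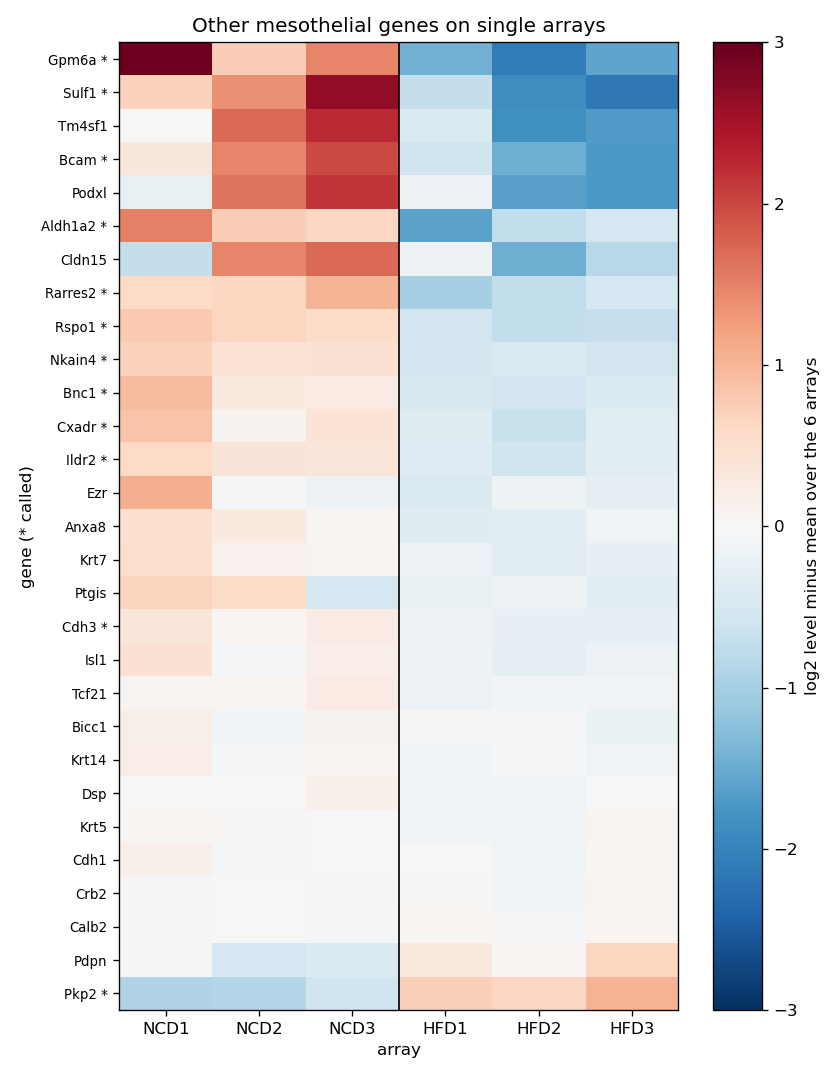
Log2 level of 29 other mesothelial genes on each array, minus the gene's mean over the 6 arrays; red is above and blue below that mean, and an asterisk marks genes called at an adjusted p of 0.05. Genes run from the largest fall (Gpm6a, −3.41) at the top to the rise of Pkp2 (1.57) at the bottom. Gpm6a is reddest on NCD1, and Sulf1 on NCD3.

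Retinoic acid synthesis is a known trait of peritoneal mesothelium, and WT1 is a known regulator of it. In a list of 12 measured genes of WT1 partners and retinoid handling 4 fell, 0 rose and 8 were not called, with a median of −0.36. Of all genes tested, 2.87% passed as lower. Aldh1a1, a retinaldehyde dehydrogenase, was at 10.66, 9.68 and 10.45 on the chow arrays and at 7.56, 8.12 and 8.23 on the high-fat arrays, and fell 4.91-fold (−2.30 ± 0.29, adjusted p = 0.0103). Its call held without each single array. Aldh1a2, a related enzyme which is also one of the 29 genes above, was at 12.23, 11.46 and 11.34 on the chow arrays and at 9.12, 9.97 and 10.18 on the high-fat arrays, and fell 3.79-fold (−1.92 ± 0.35, adjusted p = 0.0249). The retinoic acid receptor gene Rarb fell 1.91-fold (−0.94 ± 0.16, adjusted p = 0.0209). Gata6, a retinoid-dependent factor of large peritoneal macrophages that mesothelium expresses too, fell 2.36-fold (−1.24 ± 0.28, adjusted p = 0.0458). All 4 were highest on NCD1 among the chow arrays. The number called lower was 5 without NCD1, 2 without NCD2, 4 without NCD3 and 1 (Aldh1a1) without HFD1, HFD2 or HFD3 in turn. Of all genes, 7.68% were called lower without NCD1, 0.524% without NCD2 and 2.85% without NCD3. Without HFD1, HFD2 and HFD3 the shares were 1.05%, 0.415% and 0.411%. Aldh1a2 lost its call without NCD2 or any HFD array and Rarb without any HFD array. Gata6 lost its call in every fit without 1 array but the one without NCD3.

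Genes of other cell types that share the fat or its surface had medians on both sides of 0. Among all genes tested, 2.87% passed as lower and 4.96% as higher. Of 12 measured genes of large peritoneal macrophages, the macrophages of the cavity that mesothelium lines, 3 fell (Icam2, Selp and Gata6), 0 rose and 9 were not called, with a median of −0.92. Their mean log2 level was between 13.07 and 14.03 on the chow arrays and 12.26 to 12.87 on the high-fat arrays. Among the chow arrays 8 of the 12 were highest on NCD1, as most of the mesothelial genes were, and 3 were lowest on it. Of the 3 that fell, Gata6 was highest on NCD1. Selp and Icam2 were lowest on it, as were all 13 endothelial genes described below. Of the 12, 0 were below background on every array. The number called was 0 without NCD2 or HFD2, 2 without HFD1 or HFD3, 3 without NCD1 and 5 without NCD3. In these fits the share of all genes called lower ran from 0.411% without HFD3 to 7.68% without NCD1. Of 12 genes of fibroblasts and adipose progenitors 7 rose, 0 fell and 5 were not called, with a median of 1.21. Among them were Lum (2.55 ± 0.25, adjusted p = 0.00522), a matrix proteoglycan, Col1a1 (1.95 ± 0.24), Dpt (2.63-fold) and Gsn (1.08 ± 0.10). At an unadjusted p below 0.05 there were 10, of which Dcn (−0.88 ± 0.29, adjusted p = 0.126), Dpp4 (−1.42 ± 0.45, adjusted p = 0.111) and Cd34 (−1.59 ± 0.62, adjusted p = 0.176), named after their values were seen, had values below 0. Lum and Gsn kept their calls in all fits without 1 array, Col1a1 lost its call without NCD2 and Dpt without HFD2, and the number called higher was 4 without NCD2 and 3 without HFD2; without NCD1, 1 of the 12 was called lower. The mean level of the 12 ran from 8.95 to 9.26 on the chow arrays and from 9.49 to 10.10 on the high-fat arrays. Among the chow arrays 6 of the 12 were highest on NCD1 and 2 were lowest on it.

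Endothelial and smooth muscle genes had medians below 0, at −1.90 over 13 genes with 0 called by limma and −2.11 over 16 genes with 9 called lower. Among all genes tested, 2.87% passed as lower and 4.96% as higher. At an unadjusted p below 0.05, 11 of the 13 endothelial genes were lower in HFD, and without NCD1, where 7.68% of all genes were called lower, all 13 were called lower at a median of −2.72. The brightest were Fabp4 (−1.01 ± 0.36, adjusted p = 0.147), a fatty acid carrier that adipocytes make too, and Cdh5 (−1.49 ± 0.58, adjusted p = 0.177), the cadherin of endothelial junctions. The contractile genes Myl9 (−4.76 ± 0.62, adjusted p = 0.0107), Myh11 (−4.53 ± 0.59), Acta2 (−4.66 ± 0.67) and Mylk (−1.92 ± 0.29), for myosin chains, smooth muscle actin and myosin light chain kinase, were among the 9, and each lost its call without NCD2, HFD2 or HFD3. Smooth muscle genes called lower were 14 without NCD1, 5 without HFD1 and 0 without NCD2, HFD2 or HFD3. Without HFD1, 1.05% of all genes were called lower, and without NCD2, HFD2 or HFD3 at most 0.524%. The endothelial mean level was 12.34, 14.25 and 14.75 on the chow arrays and 12.83, 11.39 and 11.32 on the high-fat arrays, and the groups overlapped. All 13 endothelial genes and 15 of 16 smooth muscle genes were lowest on NCD1 among the chow arrays, where 0 of the 10 mesothelial genes were. A fit with the mean deviation of the endothelial genes as a covariate was added after the data were seen. In it the 10 mesothelial genes had a median of −2.15 and 8 were called, where 1.1% of all genes were called lower. Krt18 (adjusted p = 0.0534) and Wt1 (adjusted p = 0.124) were the others of the 10. The mean endothelial level was 13.78 in NCD and 11.84 in HFD. The covariate thus follows diet in part, and the fit cannot separate the endothelial level from diet. Of 13 measured genes of epididymal epithelium, Epcam included, 13 were below background on every array and 0 were called by limma (1 at an unadjusted p below 0.05); the brightest were Defb20 (0.15 ± 0.15) and Epcam (−0.21 ± 0.10). Of 13 measured macrophage genes 2 rose, 1 fell and 10 were not called, with a median of 0.18. Fcgr1, an Fc receptor for immunoglobulin G, rose 2.69-fold (1.43 ± 0.21, adjusted p = 0.0150), Cd68, a glycoprotein of lysosomes, rose as well (1.20 ± 0.22, adjusted p = 0.0266), and Mertk, a receptor for the uptake of dying cells, fell 1.41-fold (−0.49 ± 0.10, adjusted p = 0.0387). Fcgr1 lost its call without HFD2 or HFD3, Cd68 without NCD2 or any HFD array, and Mertk in all such fits but the one without NCD1. Among the 13 genes 0 were below background on every array; their mean level was 14.81, 14.88 and 14.12 on the chow arrays and 14.84 to 15.03 on the high-fat arrays. Adgre1 was at 15.69 ± 0.56 in NCD and 16.60 ± 0.09 in HFD (0.91 ± 0.27, adjusted p = 0.0924). The part that the share of any other cell type in a pool has in the differences of the 10 genes was not tested.

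**Figure D4:**
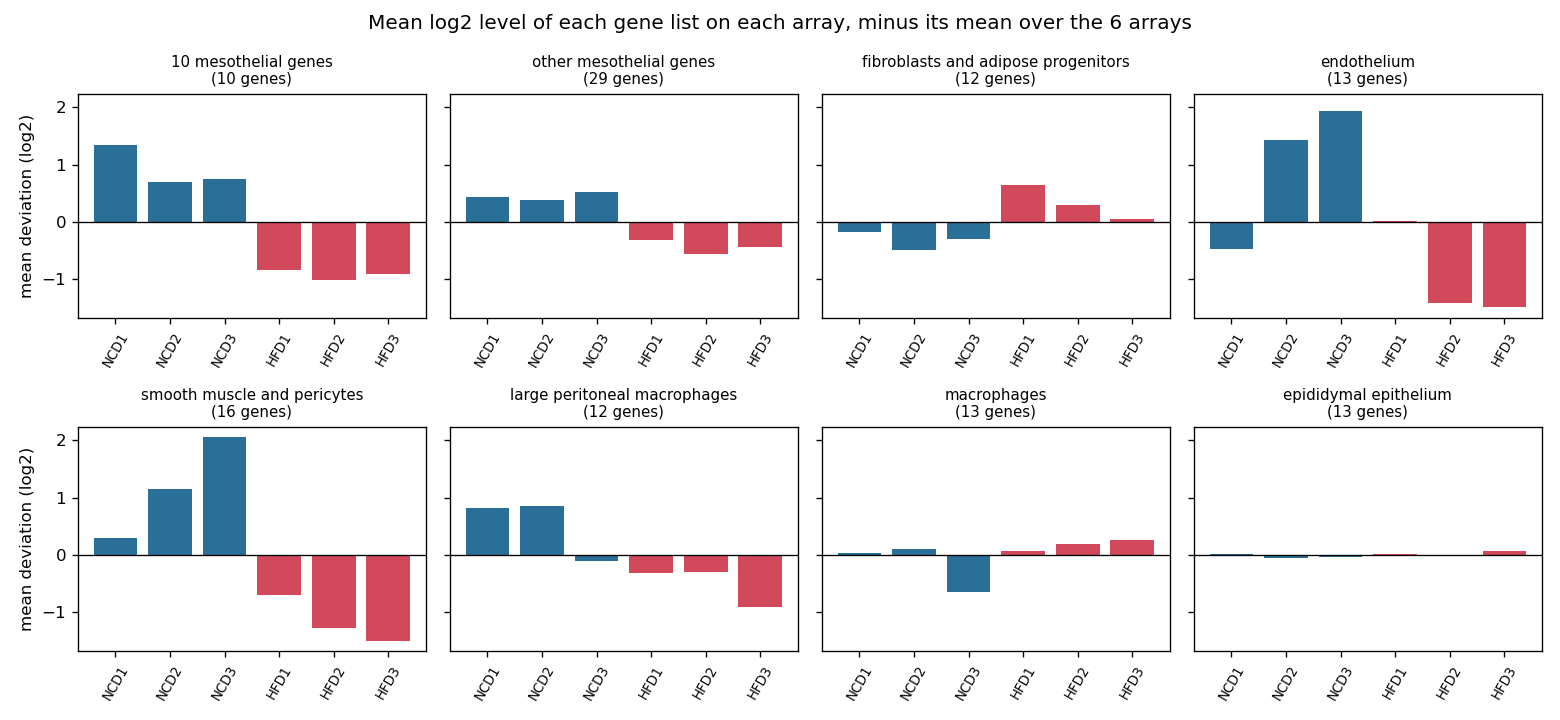
Mean log2 level of each gene list on each array, minus its mean over the 6 arrays, with NCD arrays in blue and HFD arrays in red. The 10 mesothelial genes are highest on NCD1 (8.28 as a mean level), where the endothelial genes have their lowest chow level (12.34), and the fibroblast genes run the other way between diets.

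The genes most like the mesothelial ones were taken by Pearson's r with the mean deviation of Upk1b, Upk3b, Lrrn4 and Efemp1, the 4 whose mean was above background, over 6 arrays and among 4154 other genes above background with a range of at least 1. The 10 nearest had r between 0.988 and 0.998; the arrays form 2 diet groups, so a large part of such an r is the difference between diets, and r is given only as the measure of likeness. They were Pkhd1l1, Adgrd1, Gpc3, Tmem154, Ppl, Chrdl1, Nkain4, Gpm6a, Fbxl22 and Per2, of which Nkain4 and Gpm6a are among the 29 genes above. The background filter used the mean over all 6 arrays, so genes could pass it through their chow arrays alone. Pkhd1l1, Gpc3, Nkain4 and, in the profile, Lrrn4 did so, with every HFD array below background. Pkhd1l1, a large membrane protein related to the fibrocystin of polycystic kidney disease, was nearest, at 9.82, 8.81 and 9.03 on the chow arrays and 6.18, 5.80 and 6.01 on the high-fat arrays. The HFD arrays were below background, so its level was at least 7.67-fold lower. Chrdl1, an antagonist of bone morphogenetic proteins, was at 9.31, 8.58 and 8.82 on the chow arrays and 6.51, 6.72 and 6.74 on the high-fat arrays, a 4.75-fold difference. The glypican gene Gpc3 was at 7.46, 6.83 and 7.18 on the chow arrays and at 5.75, 5.71 and 5.54 on the high-fat arrays. Its HFD arrays were below background too, so its level was at least 1.83-fold lower. All 10 were highest on NCD1 among the chow arrays, a property that the choice by likeness favours.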

How the data were processed

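Labelled RNA (100 ng per pool) from 3 NCD and 3 HFD pools was measured on 1 array each. The values deposited by the authors are log2 expression, with a row for each transcript cluster. Per the submitters' processing notes, RMA was used, with Transcriptome Analysis Console 3.1.0.5 and version 1.4.1.46 of Affymetrix Expression Console; their roles, options and genome build are not given in the sources used here. Arrays have no read depth, and their number limits the precision.

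Control rows (6732) were left out. Of 65956 clusters, 30604 had 1 gene symbol, 2146 several and 33206 none. Symbols were updated through Entrez identifiers (827 changed), and the cluster with the highest mean was kept per gene, which gave 30142 genes. Diets were compared with limma 3.58.1 (lmFit, eBayes with a mean-variance trend) in R 4.3.3 with version 1.17.8 of data.table, two-sided, with Benjamini-Hochberg adjustment over all genes and a threshold of 0.05. Cell type lists were described by counts and medians, with no set test. Promoters and figures were handled in Python 3.11.15 with pandas 2.3.3 and matplotlib 3.10.9. The gene test was tested on simulated data.

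Named genes were the 10 mesothelial genes, up to 4 genes of each list with the smallest adjusted p among those called (the 2 brightest where none was called), and the 10 genes of most like pattern. Others, such as Gpm6a and Sulf1, were named after their values were seen. The members and lists were chosen with earlier results of these data known. Some list genes (for example Slpi and Pdgfra) were not analysed here. Alternatives were each array left out, a replicate block, median centring, a filter on dim genes, no variance trend, array weights, the mean of a gene's clusters, and an endothelial covariate.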

Additional observations from a re-analysis of the deposited data

How the results depend on the processing

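Leaving out each array in turn gave 442 to 4713 genes called of all tested (2359 with 6 arrays), 5 to 10 of the 10 mesothelial genes, a median difference over them of −1.82 to −1.45, and 5 to 17 of the 29 other mesothelial genes (12 with 6 arrays). Array weights called 4282 genes and the endothelial covariate 605, with a median over the 10 genes of −2.15 under the covariate. Dropping genes with a mean below background left 4 of the 10 genes, Upk1b, Upk3b, Lrrn4 and Efemp1, all 4 called, with a median of −3.12; Lrrn4 passed the filter only through its chow arrays. With the replicate number as a block 144 genes, 6 of the 10 and 3 of the 29 were called, Krt18, Msln, Wt1 and Muc16 being lost. Same-numbered arrays had correlations of −0.46, −0.12 and −0.15 between their deviations from the group means. With only 3 arrays per diet, these cannot show whether the numbers pair the samples. Median centring, no variance trend and the mean of a gene's clusters called all 10 genes. Each of the 10 had 1 cluster, so the mean of clusters could not change their values. In 124 refits of single genes of the 10 over all alternatives the difference was below 0 each time. Of these, 104 were on the same side of the threshold as with 6 arrays and 20 no longer past it. The sign was fixed in the fits without 1 array, because every NCD array lay above every HFD array. The block, the filter, no variance trend and the mean of clusters left the estimates unchanged. The count of signs therefore adds no support. Signal over background limits the folds: 7 of the 10 genes were below background on every HFD array.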

Other observations

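Genes used as adipocyte markers were also measured in the RNA of the pools, and only Cidea among them was below background on every array. Which cells this RNA came from was not tested. Of 12 measured, 0 were called by limma between the diets (4 at an unadjusted p below 0.05), with a median of −0.44; 4 were called lower without NCD1, 1 lower without NCD3 and 1 higher without HFD1, where the median was −0.15. Car3, a carbonic anhydrase abundant in adipocytes, was at 13.33, 14.29 and 13.50 on the chow arrays and at 10.01, 13.73 and 13.47 on the high-fat arrays, so that HFD1 stood far below the other 5 arrays. The lipase gene Pnpla2 was at −0.33 ± 0.30 (adjusted p = 0.570).

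Relatives of single mesothelial genes gave few calls, where 7.83% of all genes tested passed in either direction. Among 7 other membrane mucins and mucin-like genes 1 was called, Muc3a, at least 1.49-fold lower (measured means 6.86 ± 0.25 and 6.02 ± 0.17, fitted −0.84 ± 0.15, adjusted p = 0.0252), and 5 were below background on every array; the call of Muc3a was lost without NCD2, NCD3, HFD2 or HFD3. Among 5 measured relatives of Efemp1 in the fibulin family 1 fell, Fbln1 (−0.49 ± 0.10, adjusted p = 0.0347), which lost its call without the same 4 arrays; without NCD1, 4 of the 5 were called lower, in a fit that called 7.68% of all genes lower. Fbln5, an elastic fibre protein chosen here after its values were seen, was at 12.96, 14.55 and 15.42 on the chow arrays and at 12.50, 11.20 and 10.97 on the high-fat arrays (−2.75 ± 0.68, adjusted p = 0.0597), with NCD1 the lowest chow array, where Efemp1 had its highest.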
